A study of Mus musculus with 36 samples.

Results

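Bone morphogenetic proteins (BMPs) and transforming growth factors beta (TGF-betas) are secreted signals of one protein family, and the 10 genes described here are 8 of its ligands (Bmp2, Bmp4, Bmp5, Bmp7, Bmp10, Tgfb1, Tgfb2 and Tgfb3) and 2 of its receptors (Bmpr1a and Tgfbr3). They were chosen by symbol: every probe set, meaning every group of short array probes read as 1 value, whose annotated symbol is a member was taken. This gave 24 of the 45101 probe sets and 10 of the 20701 genes on the array. Of the 24 probe sets, 16 had a mean log2 intensity above 5 in at least 1 stage, which is the level above which the study counted a transcript as expressed. A gene with several probe sets was read from the brightest of them over all arrays, and the others are given beside it.

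Hearts of OF1 mice, an outbred strain, were collected each day from embryonic day 10.5 (E10.5) to E19.5, from young adults of 10 weeks and from old adults, whose age is 14 months in the labels and is given differently in the study's methods. There were 12 stages with 3 arrays each, 36 in all, with no genetic change and no treatment in any group. The 3 arrays of E10.5 and of E11.5 (1, 2 and 3) hold mixed sexes, and every later stage has 1 female, 1 male and 1 mixed array. The methods describe them as separate biological replicates made from isolated hearts, so each value averages over every cell type in the organ, and fewer cells of a type cannot be told apart from less RNA per cell.

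Both families act in the same way. A ligand dimer joins type I and type II receptor kinases, these phosphorylate SMAD proteins, and SMADs enter the nucleus and switch target genes. In the embryonic heart, BMPs from the myocardium and TGF-betas of the cushion regions are known to drive the change of endocardial cells into the mesenchyme that later forms valves and septa, while in the adult heart TGF-betas are known for their part in fibrosis. The questions asked of the series were how transcript levels change over heart development and between embryonic and mature hearts, with age and with sex.

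The tissue label was checked on marker genes. All 5 cardiomyocyte genes (Tnnt2, Actn2, Ryr2, Tnnc1 and Ttn) were above 5 in every group compared below, and none of 4 liver genes (Alb, Apoa1, Ttr, Afp) or of 4 skeletal muscle genes was above 5 in any stage, although the extraction text of the labels names liver. Arrays of a stage correlated with an r of at least 0.969 over all probe sets, and no pair of arrays was identical. Several technical values moved with stage. The mean of 18 bacterial hybridization control probe sets went from 9.90 (E10.5) through 11.2 (E19.5) to 12.2 (young adults) and 11.4 (old adults), and the gap between the 3′ and 5′ beta-actin controls was 2.86, 4.06, 2.83 and 2.88 in the same order (log2 means). The titles of the sample labels change their prefix within E16.5. E10.5 and E19.5 thus fall on different sides of it, whereas E19.5 and both adult groups share 1 prefix. E16.5 is the only stage with both forms, the later one on the female array and the earlier one on the male and mixed arrays. A prefix term is therefore read from that stage alone, where it cannot be told apart from sex. The part of these values in the results was not tested beyond the alternatives named beside each gene.

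Bmp4 was higher in young adults than at E19.5 and Bmp5 was not, so the 250 bases before the annotated start of each are printed to show a pair of ligand genes with different courses after birth (RefSeq, GRCm38.p6, 5′ to 3′ on the gene's strand). Bmp4 lies on the minus strand and its window is chr14:46390670-46390919, while Bmp5 lies on the plus strand with its window at chr9:75775115-75775364. Capitals mark matches to any of 4 motifs, which do not overlap one another here and were searched on both strands. The TATA box was searched as TATAAA. The core bound by SP and KLF factors was searched as GGGCGG. The GC-rich element known for BMP-activated SMADs was searched as GGCGCC. The core of GATA factors was searched as AGATAA.
Bmp4: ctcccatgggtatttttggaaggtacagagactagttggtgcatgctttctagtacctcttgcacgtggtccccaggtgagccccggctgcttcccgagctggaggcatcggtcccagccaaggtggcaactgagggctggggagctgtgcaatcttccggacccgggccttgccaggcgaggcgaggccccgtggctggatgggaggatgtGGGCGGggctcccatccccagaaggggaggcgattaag
Bmp5: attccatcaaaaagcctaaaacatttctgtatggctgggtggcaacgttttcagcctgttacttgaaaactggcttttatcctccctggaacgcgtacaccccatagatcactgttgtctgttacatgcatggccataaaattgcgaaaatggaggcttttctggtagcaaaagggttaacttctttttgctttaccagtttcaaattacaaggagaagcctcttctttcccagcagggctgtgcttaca
The Bmp4 window is 63.2% G or C and holds 1 match, to the SP and KLF core, which begins 38 bases before the start, and the Bmp5 window is 42.8% G or C and holds none of the 4. Among 32851 windows of the same length in the RefSeq table, the median G or C content was 52.4%, and 12.4% held the TATA box, 32.7% the SP and KLF core, 9.59% the SMAD element and 9.99% the GATA core. A match is a stretch of letters and not a measured binding site. Windows were held for 6 of the 10 members.

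Over the 10 embryonic stages, 9 of the 10 members changed by limma's moderated F test (adjusted p under 0.05, where 45.9% of all probe sets passed), and Bmp10 did not (adjusted p = 0.835). Most members stood highest early. Bmp5, Bmp7 and Tgfbr3 had their highest stage mean at E10.5, Bmp4 at E11.5, and Bmp2, Bmpr1a and Tgfb2 at E12.5. Tgfb1 and Tgfb3 had their highest means in young and in old adults, and Bmp10, under the limit throughout, at E14.5. Of the 9 steps from one embryonic day to the next, Bmp5 and Tgfbr3 went down in 8 and Bmp7 in 7.

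When the 12 stages were ordered by mean level, most neighbours in the order could not be separated by their 3 arrays each. Bmp5 had the most separate neighbours, 4 of 11: E10.5 stood clear of E11.5, E12.5 of E13.5, E15.5 of E16.5, and E16.5 of E18.5. For Bmp2 the clear gaps lay between E13.5, E14.5 and E15.5. Bmp4 had one between E12.5 and E10.5 and one between old adults and E15.5. For Bmp7 they lay between E15.5 and E17.5 and between E19.5 and old adults, for Tgfb2 between E11.5 and E10.5 and between E15.5 and E16.5, for Bmpr1a between E19.5 and young adults, and for Tgfb3 between young adults and E12.5. Tgfbr3, Tgfb1 and Bmp10 had no such gap between neighbours. The spread within a stage was widest for Bmp10 (SD 0.920), Tgfb3 (0.787), Bmpr1a (0.660) and Tgfb2 (0.636) in old adults and for Tgfbr3 (0.611) at E10.5 (n = 3 each).

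**Figure D1:**
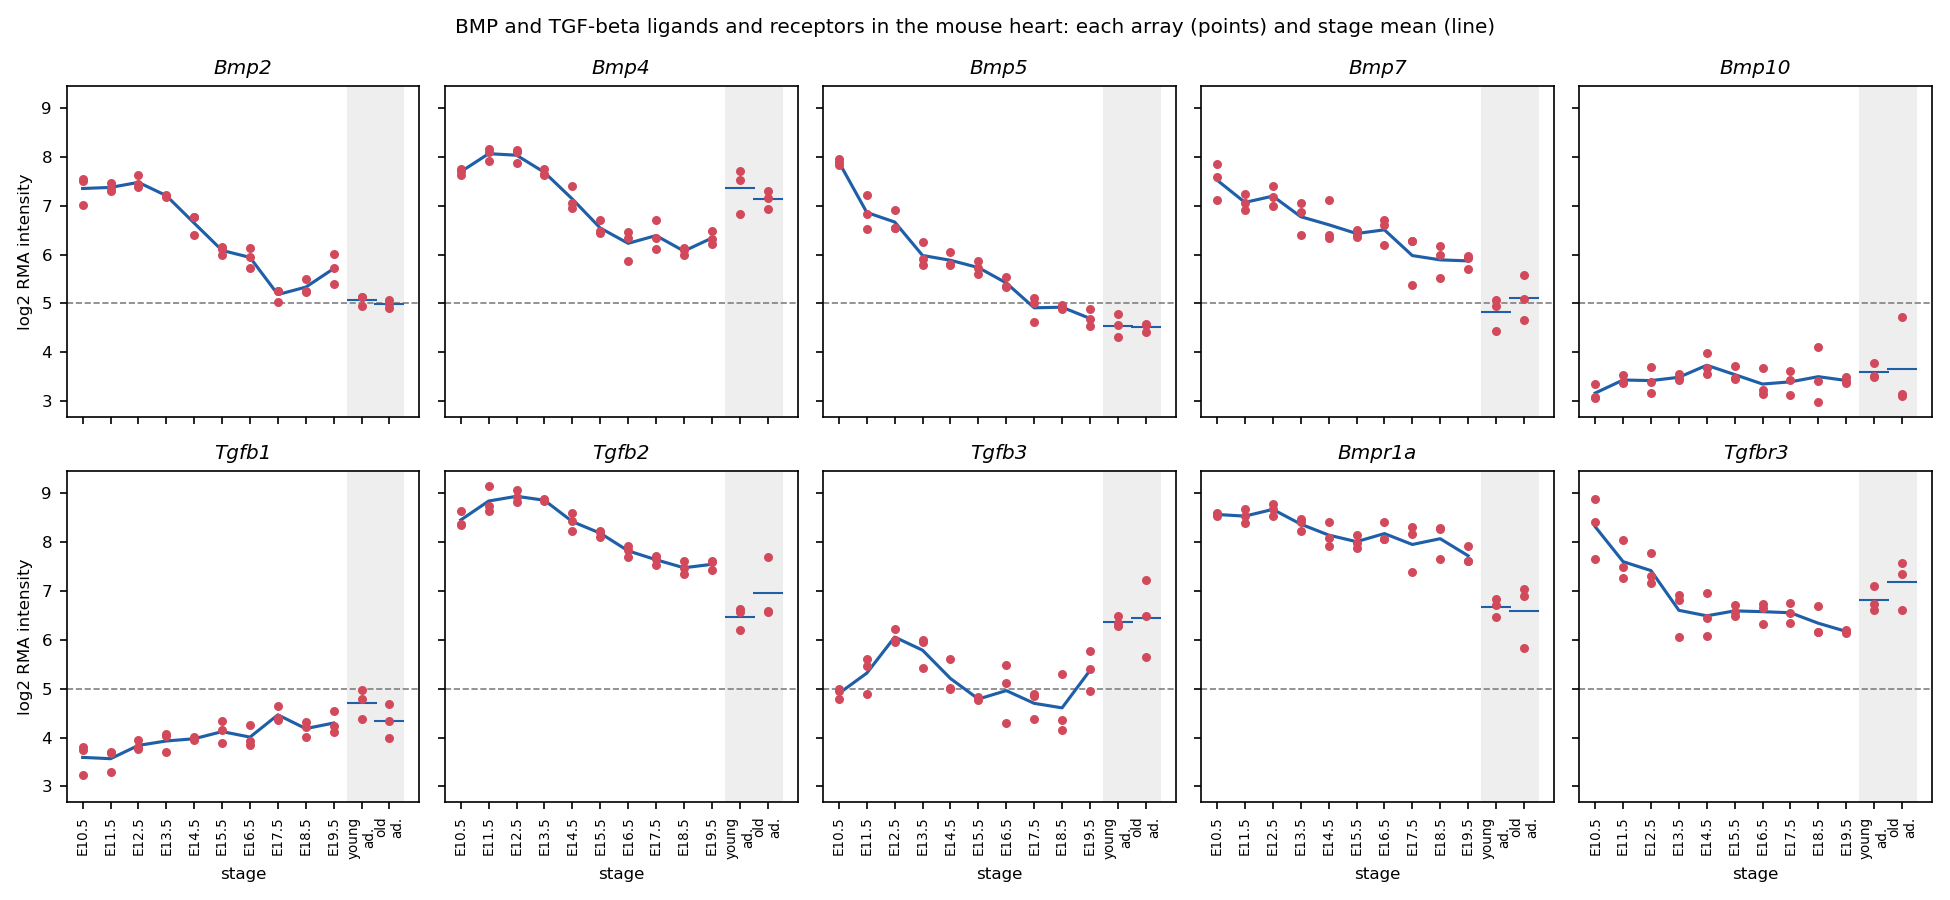
Log2 RMA intensity (y axis) of the probe set read for each of the 10 genes across the 12 stages (x axis), with each of the 3 arrays of a stage as a point, the embryonic stage means as a line, the adult means as bars in the grey area, and the expression limit of 5 dashed. Bmp5 goes from a mean of 7.89 at E10.5 to 4.52 in old adults, Bmp4 comes back from 6.07 at E18.5 to 7.36 in young adults, and Bmp10 stays between 3.17 and 3.74.

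Bmp5 (chr9:75775365-75900316), a ligand of the BMP subfamily that also holds Bmp7, showed the largest fall. Its 3 arrays read 7.83, 7.89 and 7.95 at E10.5, 4.88, 4.67 and 4.53 at E19.5 (female, male, mixed), and 4.56, 4.31 and 4.78 in young adults. Every E10.5 array was above every array of the other 11 stages, and E19.5 overlapped with young adults. The fall was 3.19 on the log2 scale from E10.5 to E19.5 (SE 0.161, 9.15-fold, adjusted p = 4.37e-16). The largest step was the first, from E10.5 to E11.5, where the mean went from 7.89 to 6.86. From E17.5 on the stage means lay under the expression limit, so the flat course at the end is a course near the array's floor. The other 2 probe sets of Bmp5 also passed the test in that comparison with smaller differences, 1.47 and 1.19. The first of them was above the limit only at E10.5 (mean 5.01), and the second in no stage (highest mean 3.80).

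Bmp7 (chr2:172868012-172940321), best known for kidney and eye development and also made in the heart wall, fell more gradually and went on falling after birth. The E10.5 arrays read 7.58, 7.86 and 7.12, the E19.5 arrays 5.70, 5.98 and 5.94, the young adult arrays 4.44, 5.08 and 4.94 and the old adult arrays 5.10, 4.67 and 5.57. These 3 developmental groups did not overlap, while the old adult arrays overlapped with the young adult ones. The difference was 1.65 between E10.5 and E19.5 (SE 0.252, adjusted p = 3.76e-06) and 1.05 between E19.5 and young adults (SE 0.252, adjusted p = 0.00165). With the hybridization control level as a covariate the second of these was 0.48 and no longer passed (adjusted p = 0.182). The other probe set of Bmp7 above the limit gave larger differences of 2.44 and 1.35.

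Bmp2 (chr2:133552159-133562896), which with Bmp4 forms the other BMP subfamily and is known to pattern the atrioventricular canal, kept its level until E13.5 and then fell until E17.5. Stage means from E10.5 to E13.5 lay between 7.20 and 7.47, and the mean went from 6.64 at E14.5 to 5.18 at E17.5. Bmp2 then went back up to 5.33 at E18.5 and 5.71 at E19.5, where every array was above every E17.5 array. The E17.5 arrays overlapped with those of young adults. Its arrays read 7.54, 7.02 and 7.49 at E10.5, 6.02, 5.73 and 5.39 at E19.5 and 5.13, 4.96 and 5.13 in young adults. The 3 groups did not overlap. The difference was 1.64 between E10.5 and E19.5 (SE 0.148, adjusted p = 2.9e-10) and 0.64 between E19.5 and young adults (SE 0.148, adjusted p = 0.00115).

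Bmp4 (chr14:46383525-46390669), known in the heart from the outflow tract and the second heart field, was the only BMP ligand among the members that came back after birth. It read 7.70, 7.62 and 7.75 at E10.5, rose to 7.92, 8.10 and 8.16 at E11.5, and stood at 6.31, 6.21 and 6.49 at E19.5. Young adult arrays read 7.72 (female), 7.53 (male) and 6.83 (mixed), and old adult arrays 7.31, 7.16 and 6.94. All 6 adult arrays were above all 9 arrays of E17.5 to E19.5, and the young adult arrays reached into the E10.5 range. Bmp4 was higher at E10.5 than at E19.5 by 1.36 (SE 0.178, adjusted p = 3.57e-07), and 2.03-fold higher in young adults than at E19.5 (adjusted p = 3.9e-05). Between E10.5 and young adults the difference of 0.33 did not pass (95% confidence interval -0.03 to 0.70, adjusted p = 0.102). It passed without the young adult female array (0.51, adjusted p = 0.0204) and with the hybridization control as a covariate (1.04, adjusted p = 0.014), and it changed sign under both other scalings, so the order of these 2 stages was not settled.

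Bmp10 (chr6:87428994-87434512), known as a ligand of trabecular myocardium in the embryo and of the right atrium in the adult, was read by 1 probe set that lay under the expression limit in every stage. Stage means ran from 3.17 at E10.5 to 3.74 at E14.5, and no stage comparison passed. A transcript at low level and a probe set that responds poorly cannot be told apart here. A single array stood out. The old adult female array read 4.72 against 3.10 (male) and 3.15 (mixed), and the highest of the other 35 arrays was the E18.5 mixed array at 4.11. That old adult female array was also the highest of the 6 adult arrays for Myl7 (12.7), Myl4 (11.9) and Sln (11.4), 3 atrial sarcomere and calcium pump regulator genes, where the male and mixed old adult arrays read 9.46 and 9.53 for Myl7. It was not the highest for Nppa, an atrial peptide gene and the remaining marker, which read 13.0 on it, 13.4 on the old adult male array and 12.0 on the mixed one. The mean of the 4 atrial genes fixed as markers was 12.3 on that array, 9.95 and 9.47 on the other old adult arrays, and 10.6 to 11.0 on the young adult arrays. The part of atrial tissue in its Bmp10 value was not tested. Without that array, old adult minus young adult Bmp10 went from 0.06 to -0.47, and neither value passed (adjusted p = 0.92 and 0.181).

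Among the TGF-beta ligands, Tgfb2 (chr1:186622787-186709697), the isoform known for cushion and outflow tract formation, was highest at E12.5 and lower at each later age until young adulthood, apart from a small step up at E19.5. It read 8.36, 8.34 and 8.64 at E10.5, 9.06, 8.82 and 8.91 at E12.5, 7.59, 7.41 and 7.61 at E19.5, and 6.57, 6.19 and 6.63 in young adults. The arrays of these 4 stages did not overlap. The differences were 0.91 between E10.5 and E19.5 (SE 0.188, adjusted p = 0.000245) and 1.07 between E19.5 and young adults (SE 0.188, adjusted p = 4.12e-05). All 4 probe sets of Tgfb2 were above the limit in at least 1 stage, the dimmest only from E10.5 to E13.5. They were higher at E10.5 than at E19.5, by 0.89 to 2.54. After E19.5 their values were less alike: one of the other 3 was also higher at E19.5 than in young adults (0.93, adjusted p = 0.0196), whereas the remaining 2 (0.30 and 0.12) did not pass (adjusted p = 0.600 and 0.609).

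Tgfb3 (chr12:86056743-86079041), known for palate fusion and also made in cushion mesenchyme, had a peak at E12.5 and a higher level in adults. The arrays read 4.98, 4.94 and 4.78 at E10.5, 5.98, 6.22 and 5.95 at E12.5, and 4.76, 4.78 and 4.82 at E15.5. The E12.5 arrays stood above those of both other stages. At E19.5 they read 5.40, 5.76 and 4.95, in young adults 6.33, 6.28 and 6.48, and in old adults 6.49, 7.22 and 5.64. All young adult arrays were above all embryonic arrays, while the mixed old adult array fell into the embryonic range. Tgfb3 was 2.75-fold higher in young adults than at E10.5 (adjusted p = 0.000155) and 1.99-fold higher than at E19.5 (adjusted p = 0.0138). The second call was lost without the mixed E19.5 array (difference -0.78, adjusted p = 0.0869), and the first with the title prefix as a block (difference -0.69, adjusted p = 0.327). That block term rests on the E16.5 arrays alone, so it cannot settle whether the first call depends on the prefix.

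Tgfb1 (chr7:25687002-25705077), the isoform known from platelets, leukocytes and fibrosis, lay under the expression limit with both of its probe sets in every stage. The brighter probe set read 3.80, 3.24 and 3.74 at E10.5, 4.24, 4.10 and 4.55 at E19.5 and 4.37, 4.97 and 4.78 in young adults. The E10.5 arrays were below all of these others. Tgfb1 was 1.63-fold higher at E19.5 than at E10.5 (adjusted p = 0.0024) and 2.16-fold higher in young adults than at E10.5 (adjusted p = 5.09e-06), and the second probe set passed in the same direction in both comparisons (1.32-fold and 1.67-fold). With the hybridization control as a covariate neither call of the brighter probe set held (adjusted p = 0.419 and 0.425). Other genes under the limit were lower at E10.5 too. Against E19.5 and young adults, median differences were -0.43 and -0.67 over the 4 liver genes. Over the 4 skeletal muscle genes they were -0.33 and -0.51. The part of such a shift near the floor in the Tgfb1 values was not tested. The summed level of 5 macrophage and leukocyte genes (Ptprc, Cd68, Csf1r, Cd14 and Laptm5) went up over the same ages and on into old age, with a mean of 3.41 at E10.5 (array range 3.32 to 3.54), 4.92 at E19.5 (4.73 to 5.09), 6.23 in young adults (6.12 to 6.38) and 7.01 in old adults (6.85 to 7.25), and its part in the Tgfb1 values was not tested. Of those 5 genes, 0, 2, 2 and 4 were above the limit in the same order. Tgfb1 did not go on upward in old adults, where its mean was 4.34 against 4.71 in young adults (difference -0.37, adjusted p = 0.223).

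Of the 2 receptors, Tgfbr3 (chr5:107106567-107289629) encodes betaglycan, a coreceptor that presents TGF-beta 2 to the signalling receptors and is needed for the coronary vessels. Its arrays read 8.40, 8.87 and 7.66 at E10.5, 6.92, 6.82 and 6.06 at E13.5, 6.17, 6.20 and 6.14 at E19.5, 7.09, 6.74 and 6.61 in young adults and 7.57, 7.33 and 6.61 in old adults. Most of the fall lay before E13.5, and the adult arrays stood between the E10.5 and the E19.5 arrays without reaching either. It was higher at E10.5 than at E19.5 by 2.14 (SE 0.272, 4.41-fold, adjusted p = 1.98e-07) and higher at E10.5 than in young adults by 1.50 (SE 0.272, adjusted p = 2.48e-05). The second value was -0.10 with the hybridization control as a covariate (adjusted p = 0.912). The step back up from E19.5 to young adults, 1.56-fold, did not pass (adjusted p = 0.0754), but it did under quantile normalization (adjusted p = 0.0111) and median centring (adjusted p = 0.00771).

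Bmpr1a (chr14:34411061-34503336) encodes the type I receptor that BMP2 and BMP4 bind, whose loss in myocardium is known to disturb trabeculae, septa and cushions. Its brightest probe set read 8.58, 8.52 and 8.57 at E10.5, 7.92, 7.61 and 7.61 at E19.5, and 6.84, 6.71 and 6.46 in young adults. These 3 groups did not overlap. It fell both before and after birth: the differences were 0.84 between E10.5 and E19.5 (SE 0.228, adjusted p = 0.00345) and 1.05 between E19.5 and young adults (SE 0.228, adjusted p = 0.000633). The first was 0.42 under quantile normalization (adjusted p = 0.0831) and 0.67 with the title prefix as a block (adjusted p = 0.287), a term read from E16.5 alone. With the hybridization control as a covariate the first was 0.12 (adjusted p = 0.826), and the second was also lost (0.47, adjusted p = 0.124).

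The 6 probe sets of Bmpr1a did not move together. Of these, 4 were above the limit and were higher at E10.5 than at E19.5, by 0.84, 0.76, 1.96 and 2.31. The last of these was above the limit only at E10.5 (mean 5.72), so it met the limit through its high stage. It did not pass between E19.5 and young adults (-0.11, adjusted p = 0.804), while the one with the smallest early difference did (1.15, adjusted p = 0.000127). The remaining 2 probe sets were under the limit, and neither passed between E10.5 and E19.5 (-0.32 and -0.45, adjusted p = 0.194 and 0.0912). The second probe set of Tgfbr3 was under the limit too and went against the first, 1.50-fold lower at E10.5 than at E19.5 (adjusted p = 0.00544). Which transcripts each probe set reads was not analysed here, and the gap of the 3′ and 5′ controls given above differs between the same stages.

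**Figure D2:**
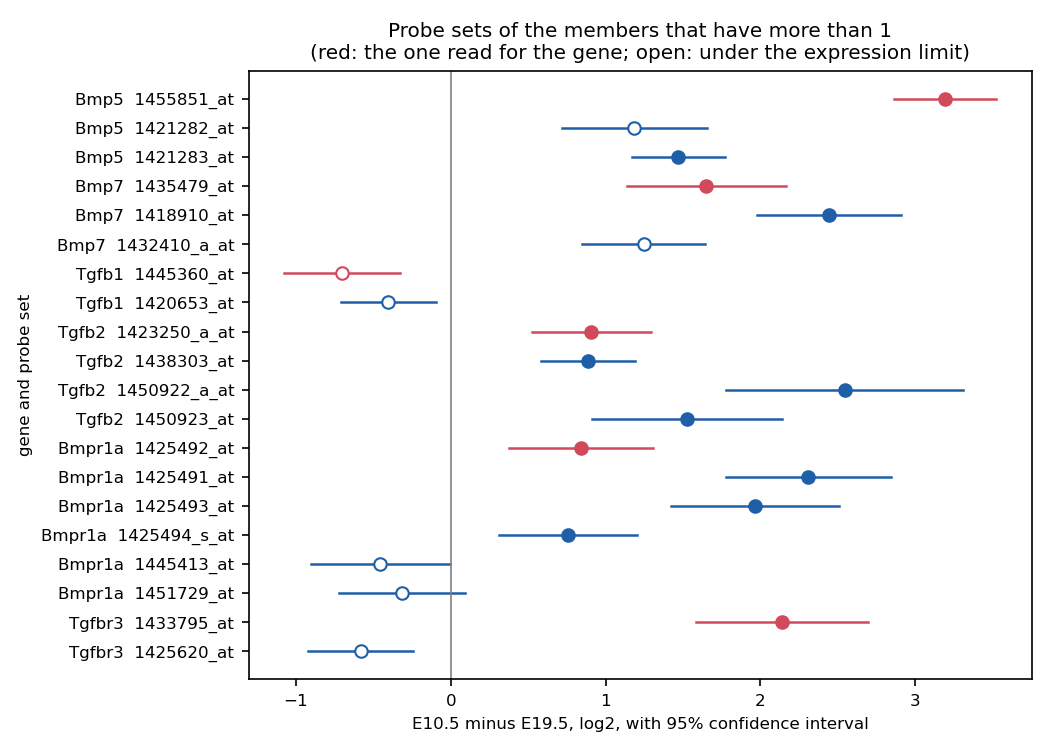
Difference between E10.5 and E19.5 means (x axis, log2, with 95% confidence intervals) for every probe set (y axis) of the 6 members that have several, with the probe set read for the gene in red and probe sets under the expression limit as open circles. All filled circles lie to the right of 0, from 0.76 to 3.19, and the probe sets left of 0 are under the limit. This split is partly built in, because a mean above 5 in any stage fills a circle. A Bmp5 and a Bmpr1a probe set met the limit only at E10.5 (means 5.01 and 5.72). The dimmest Tgfb2 probe set met it only from E10.5 to E13.5. The place of these circles to the right of 0 follows from the limit.

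Between E10.5 and E19.5 hearts, the members were mostly higher in the early heart. Bmp2, Bmp4, Bmp5, Bmp7, Bmpr1a, Tgfb2 and Tgfbr3 were higher at E10.5, 7 of 10, where 21.8% of all probe sets were called in that direction, and Tgfb1 was lower, 1 of 10 against 23.7%. Tgfb3 (difference -0.47, adjusted p = 0.207) and Bmp10 (-0.26, adjusted p = 0.433) did not pass. The median difference was 1.13 over the members, -0.15 over all probe sets and 0.21 over those above the expression limit. By the study's stricter rule for differentially expressed genes (adjusted p under 1e-05, over 4-fold and a stage mean above 5), Bmp5 and Tgfbr3 were called, 2 of 10, against 2.18% of all probe sets. Over all 24 member probe sets the rule called 5. These included probe sets not read for the gene of Bmp7 (5.44-fold), Tgfb2 (5.83-fold) and Bmpr1a (4.95-fold).

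Between E10.5 and young adult hearts, Bmp2, Bmp5, Bmp7, Bmpr1a, Tgfb2 and Tgfbr3 were higher at E10.5, 6 of 10 (27.1% of all probe sets), and Tgfb1 and Tgfb3 were lower, 2 of 10 (35.9%). The stricter rule called Bmp5 (10.1-fold), Bmp7 (6.51-fold) and Bmp2 (4.85-fold), 3 of 10 against 6.53% of all probe sets. By the probe set read for it, Tgfb2 lay just inside 4-fold at 3.94-fold. Over all 24 member probe sets the rule called 8. These included other probe sets of Tgfb2 (5.46-fold and 7.19-fold) and of Bmpr1a (7.06-fold and 4.60-fold), so the calls of both genes depend on the probe set. The median difference was 1.69 over the members, -0.19 over all probe sets and 0.41 over those above the expression limit.

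Between E19.5 and young adult hearts the members went both ways. Bmp2, Bmp7, Bmpr1a and Tgfb2 were higher before birth, 4 of 10 (15.5% of all probe sets), and Bmp4 and Tgfb3 were higher in young adults, 2 of 10 (13.6%). The stricter rule called 0 of 10 members and 1.45% of all probe sets, and 8 members had an unadjusted p under 0.05, as did 38.4% of all probe sets. The median difference was -0.01 over the members, -0.04 over all probe sets and 0.13 over those above the expression limit. The comparisons with young adults use the same 3 young adult arrays, and those with E10.5 the same E10.5 arrays, so they are not independent of each other.

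**Figure D3:**
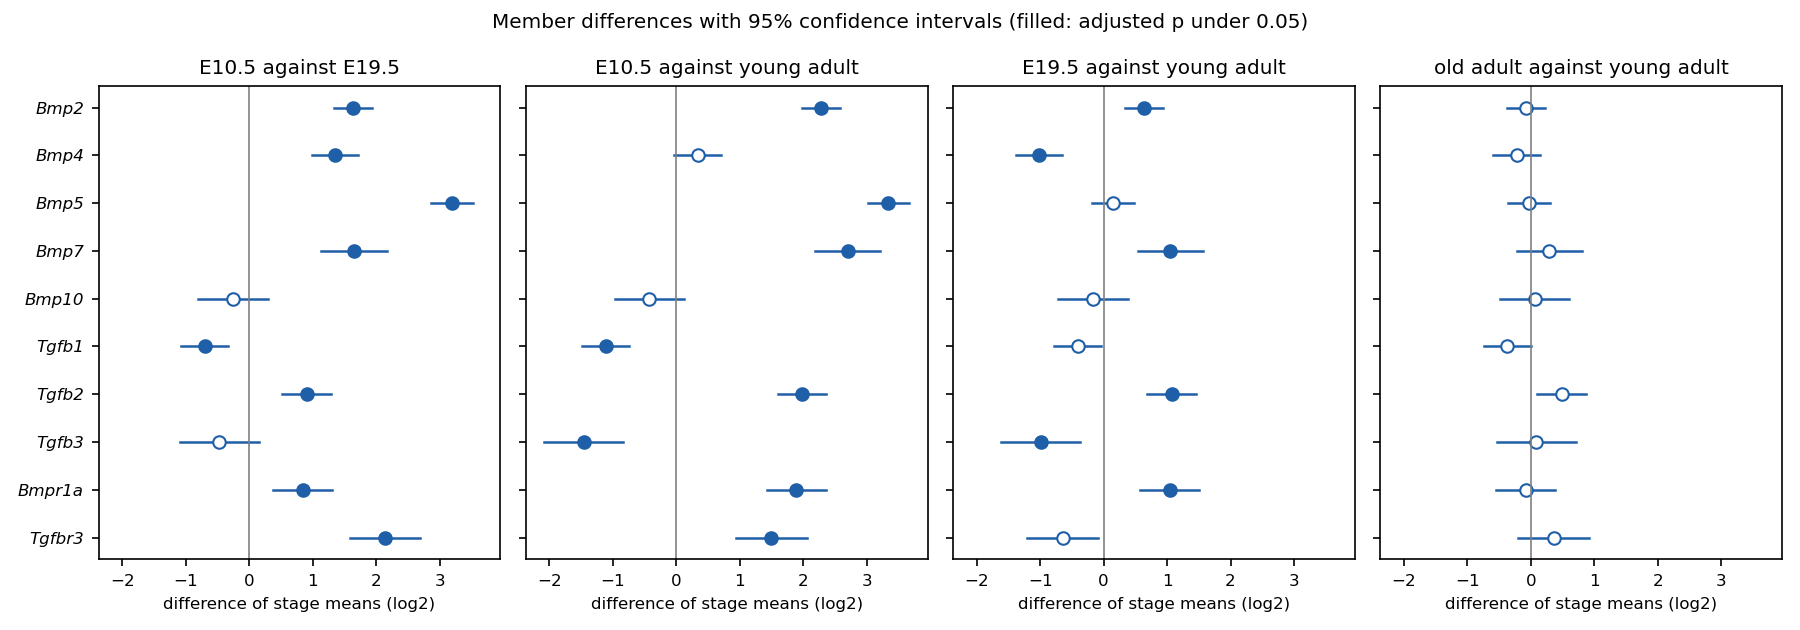
Differences of stage means (x axis, log2, with 95% confidence intervals) of the 10 members in 4 comparisons, as the first-named stage minus the second, with filled circles for an adjusted p under 0.05. Bmp4 and Tgfb3 lie left of 0 in E19.5 against young adult (-1.02 and -0.99), and no circle is filled in old against young adult.

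Scaling mattered for these directions. The arrays' medians over probe sets with a mean above 5 were higher at E10.5 than at E19.5 and lowest of these 4 groups in young adults, so centring on them lowered the differences by 0.34 (E10.5 against E19.5), 0.53 (E10.5 against young adult), 0.18 (E19.5 against young adult) or 0.14 (old against young adult). Over all probe sets the calls then moved from 9830 higher and 10710 lower to 6577 and 25087 between E10.5 and E19.5, from 12222 and 16193 to 7412 and 28776 between E10.5 and young adults, from 7000 and 6120 to 4882 and 10004 between E19.5 and young adults, and from 1726 and 1412 to 939 and 2079 between old and young adults. Among the members the counts were 7 higher and 2 lower, 6 and 3, 4 and 4, and 0 and 0, in the same order of comparisons. Under centring the members called higher at E10.5 thus kept that call. Tgfb3 (E10.5 against E19.5), Bmp10 (E10.5 against young adult), and Tgfb1 and Tgfbr3 (E19.5 against young adult) were added on the lower side. Under quantile normalization 6 members were called higher at E10.5 than at E19.5, and Bmpr1a did not pass.

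No member passed between old and young adult hearts, 0 of 10 in either direction by limma, where 3.83% of all probe sets were higher in old adults and 3.13% lower, and by the stricter rule 0 of 10 against 0.00665%. At an unadjusted p under 0.05 there was 1 member, Tgfb2, and 23.1% of all probe sets. Its old adult arrays read 6.57 (female), 7.69 (male) and 6.59 (mixed) against 6.57, 6.19 and 6.63 in young adults, so the male array alone stood above the young adult range. The difference was 0.49 (SE 0.188, 95% confidence interval 0.10 to 0.87, adjusted p = 0.111). Without the old adult female array it was 0.67 (adjusted p = 0.0342), without the mixed one 0.66 (adjusted p = 0.0488), and without the male one 0.12. The same male array was also the highest old adult array for Tgfb3 (7.22), and the mixed array was the lowest for Bmpr1a (5.83) and Tgfb3 (5.64).

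Male and female hearts did not differ for any member over the 9 stages from E13.5 on that have 1 array of each, 0 of 10 by limma with stage as a block, where 22 probe sets or 0.0488% of all were called. There were 2 members with an unadjusted p under 0.05, where 7.8% of all probe sets had one. Bmp2 was lower in the male array in 9 of 9 stages, with a difference of -0.18 (SE 0.0711, adjusted p = 0.594), and Tgfbr3 was lower in the male array in all but 2 stages (-0.21, SE 0.0845, adjusted p = 0.594). For no member did the sex difference change between embryonic and adult pairs by an interaction term (the lowest adjusted p over the 10 was that of Bmp10, 0.269).

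The rest of the pathway was described by lists of other ligands, receptors, SMADs, antagonists, latent TGF-beta binding proteins and target genes. Among 14 other receptors and coreceptors, 8 were higher at E10.5 than at E19.5 and 3 lower, with a median difference of 0.53, which became 6 and 5 (median 0.19) under centring. Tgfbr1, the type I TGF-beta receptor, was higher at E10.5 by 1.67 (adjusted p = 1.92e-07), Acvr1, another type I BMP receptor, by 1.84 (adjusted p = 0.000161), and Bambi, a decoy receptor without kinase, by 2.20 (adjusted p = 1.78e-07). The type I receptor Acvrl1 and the coreceptor Eng, both of endothelial cells, were lower at E10.5 (2.36-fold and 2.06-fold, adjusted p = 1.5e-06 and 2.37e-07). These 5 receptor genes kept their side of the threshold under both other scalings. Tgfbr2, the type II TGF-beta receptor, did not pass (-0.44, adjusted p = 0.346), and Bmpr2 was higher at E10.5 by 0.60 (adjusted p = 0.00712) but by 0.26 under centring (adjusted p = 0.131).

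Against young adults, 8 of the 14 receptors were higher at E10.5 and 3 lower (median 0.77), or 7 and 6 (median 0.25) under centring. By the stricter rule Acvr1 (7.62-fold), Tgfbr1 (6.14-fold) and Acvr1b (5.06-fold), all type I receptors, were higher at E10.5 and Acvrl1 was 7.63-fold lower. The Acvrl1 means were under the limit at every embryonic stage, 2.93 at E10.5 and 4.17 at E19.5, so its folds are read from values near the floor. The member receptor Bmpr1a was higher at E10.5 too, and Acvrl1 went the other way. Between old and young adults 3 receptors were called, all higher in old adults: Acvrl1 (0.70, adjusted p = 0.0143), Bmpr2 (0.69, adjusted p = 0.0162) and Eng (0.50, adjusted p = 0.0215), and 1 under either other scaling. The mean of 6 endothelial and endocardial markers was 7.05 in old adults (6.98 to 7.14) and 6.42 in young adults (6.20 to 6.56), and its part in these calls was not tested.

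Among 12 SMADs and their inhibitors, 6 were higher at E10.5 than at E19.5 and 2 lower (median 0.35), or 4 and 4 (median 0.01) under centring. The inhibitory Smad6 was higher at E10.5 than at E19.5 by 1.56 (adjusted p = 1.77e-05) and higher at E19.5 than in young adults by 2.03 (4.10-fold, adjusted p = 3.41e-07), and at 12.1-fold between E10.5 and young adults it was the only gene of this list called by the stricter rule there. The TGF-beta receptor SMAD Smad3 was higher at E10.5 than at E19.5 by 1.07 (adjusted p = 1.08e-07) and higher at E19.5 than in young adults by 0.88 (adjusted p = 3.79e-06). The BMP receptor SMAD Smad1 and the shared partner Smad4 were lower at E10.5 than at E19.5, with differences of -0.56 and -0.86. In old adults Smad6 (1.06, adjusted p = 0.0132) and Smad7 (0.79, adjusted p = 0.00905), both inhibitory, were higher than in young adults, and no other gene of the list passed. Under quantile normalization 1 gene of the list was called higher in old adults, and under centring 2.

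Among 18 other ligands that were measured of 23 listed, only 6 lay above the limit in any stage, 0 were higher and 11 lower at E10.5 than at E19.5, and 0 and 15 than in young adults, beside the 23.7% and 35.9% of all probe sets that were lower. The lower counts were 7 and 8 under quantile normalization and 16 and 18 under centring. The median differences of these ligands were -0.53 and -0.52. Over the 4 liver genes, all under the limit, they were -0.43 and -0.67, and over the 4 skeletal muscle genes -0.33 and -0.51. The part of such a shift near the floor in the ligand counts was not tested. Gdf10 passed the stricter rule, 5.19-fold lower at E10.5 than in young adults (adjusted p = 2.92e-06), with an E10.5 mean of 3.16, under the limit. Between old and young adults 2 of these 18 ligands were called, both higher in old adults, beside 3.83% of all probe sets. The count was also 2 under both other scalings. Among 17 secreted antagonists and modulators, 2 were higher and 7 lower at E10.5 than at E19.5 (median -0.27), or 1 and 11 (median -0.61) under centring, and Nog, Chrd, Grem1 and Fst, the classical ligand traps, lay under the limit in every stage. Bmper, an extracellular BMP modulator of endothelial cells, was 4.17-fold higher and Crim1, a membrane protein that binds BMPs, 6.97-fold lower at E10.5 than in young adults (adjusted p = 5.1e-07 and 2.18e-13). Of 9 genes that hold or release latent TGF-beta, 3 were higher and 3 lower at E10.5 than at E19.5. Ltbp2 was 7.63-fold lower at E10.5 (adjusted p = 9.03e-09), with stage means from 3.13 at E10.5, under the limit, to 6.41 at E16.5.

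**Figure D4:**
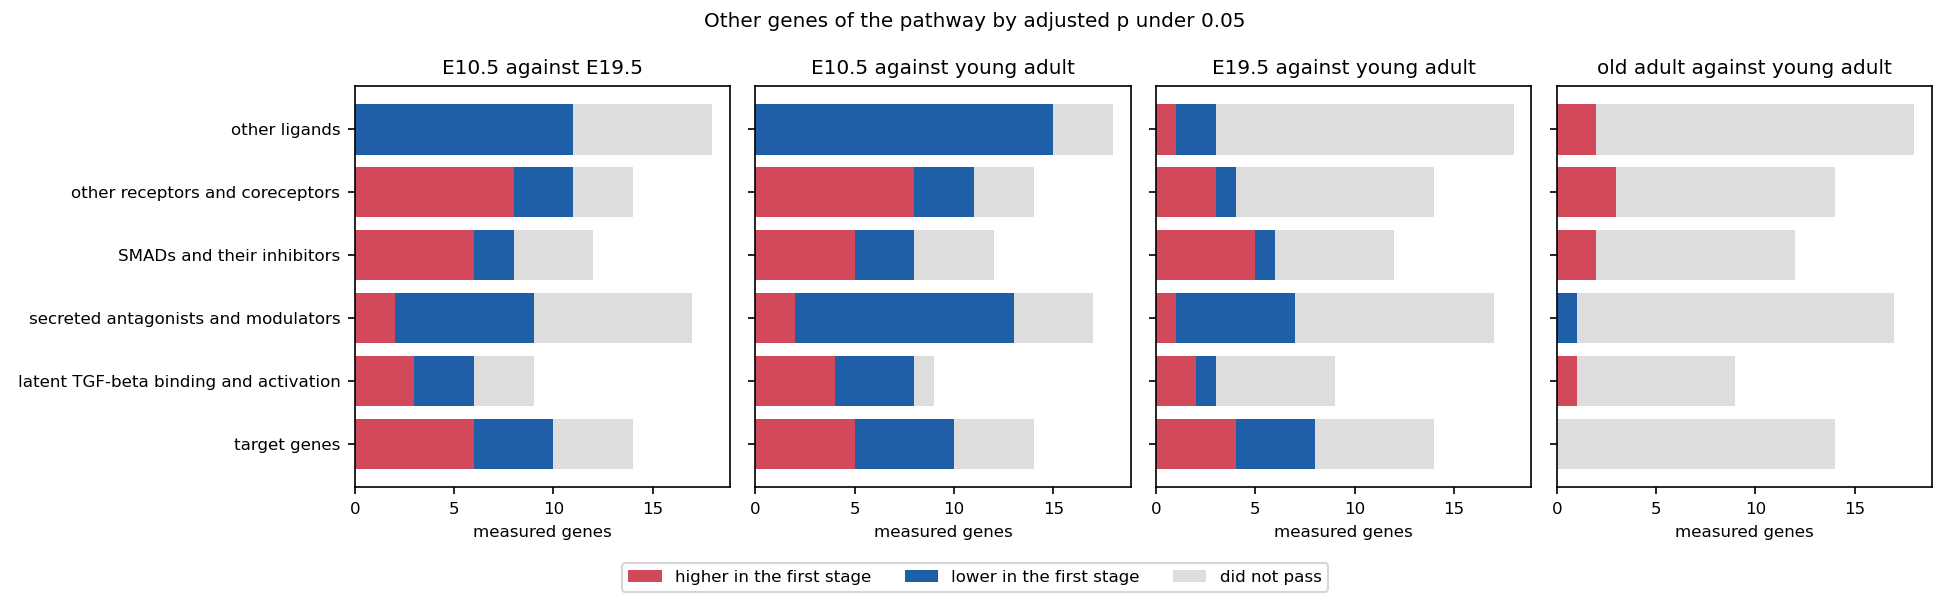
Number of measured genes (x axis) of each pathway list (y axis) that were higher in the first-named stage (red), lower (blue) or did not pass (grey) at an adjusted p under 0.05, in the 4 comparisons, on the deposited scale. Other receptors and coreceptors show 8 higher and 3 lower in both comparisons of E10.5, where other ligands show 0 higher. Of the 18 other ligands, only 6 lay above the expression limit in any stage.

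Of 14 target genes, 6 were higher and 4 lower at E10.5 than at E19.5 (median 0.063), or 4 and 7 under centring (median -0.28). Id2, an inhibitor of helix-loop-helix factors that BMPs induce, was higher at E10.5 than at E19.5 by 2.51 (5.71-fold, adjusted p = 4.81e-07) and did not differ detectably between E19.5 and young adults (0.15, adjusted p = 0.788). Tbx20, a T-box factor of the heart, was 4.35-fold higher at E10.5 than in young adults (adjusted p = 7.53e-08). Between E19.5 and young adults 4 target genes were higher before birth and 4 were higher in young adults, or 3 and 4 under centring. The latter were Id1 (2.16-fold), Id3 (2.33-fold), Tgfbi (2.25-fold) and Ctgf (1.98-fold).

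**Figure D5:**
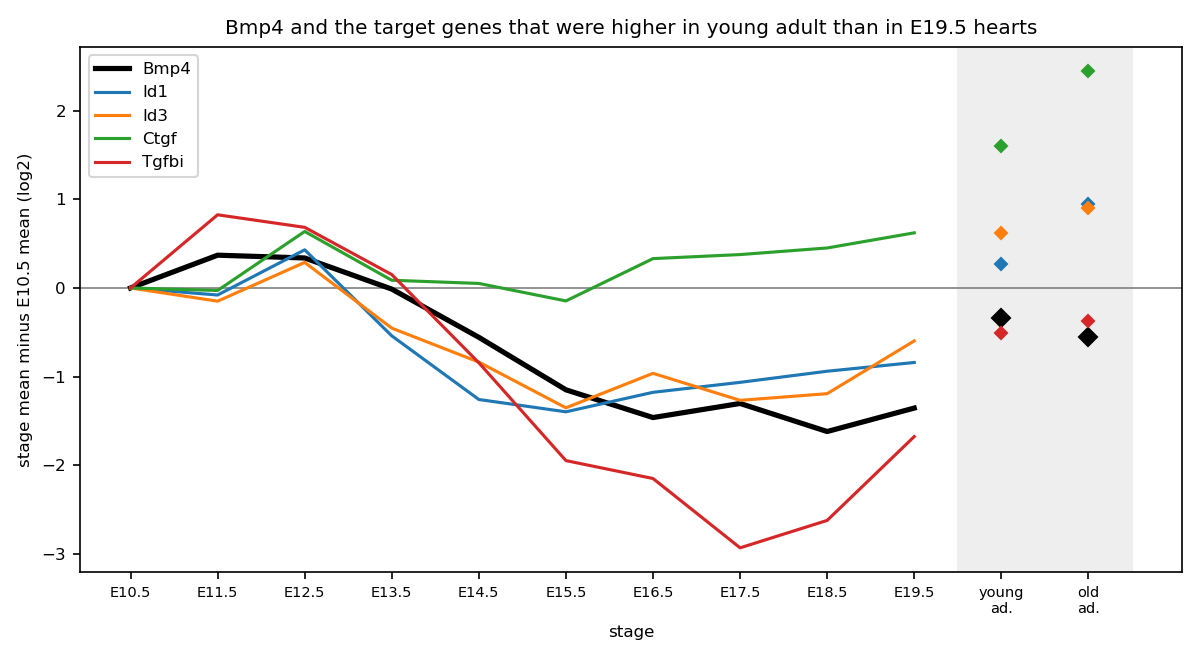
Stage mean minus the E10.5 mean (y axis, log2) of Bmp4 (thick line) and of the 4 target genes that were higher in young adults than at E19.5, across the 12 stages (x axis), with adult stages as diamonds. The rise after E19.5 is what these genes were chosen by, so sharing it with Bmp4 is no evidence of a link. A further 4 target genes, not drawn, were lower in young adults than at E19.5. Bmp4, Tgfbi, Id1 and Id3 are lower at E15.5 than at E10.5, whereas Ctgf did not pass the F test over the embryonic stages (adjusted p = 0.226).

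The probe sets of other genes with the courses most like each member were sought among 18432 expressed and named probe sets by Pearson's r over the 12 stage means. For Bmp4 the nearest pair were both Tgfbi (r = 0.982 and 0.965), a matrix protein gene named for its induction by TGF-beta, and over the single arrays the first r was 0.939. Bmp7 was nearest to Aurkb (0.996), a mitotic kinase, and Dnmt1 (0.996), the maintenance DNA methyltransferase. Bmp5 was nearest to Haus6 (0.994) and Elovl6 (0.994), Bmp2 to Ywhab (0.989), Tgfb2 to Fgfrl1 (0.989), Bmpr1a to Atp1b1 (0.992), Tgfbr3 to Dcun1d1 (0.974), Tgfb1 to Mepce (0.982) and Tgfb3 to Ttc28 (0.966). Bmp10 had the least close neighbour, Cyp4f16 (0.929), whose r over the single arrays was 0.324. All these values share the same 12 stages and many transcripts follow a steady course over them, so they rank likeness and carry no test.

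Among the members themselves, over the 10 embryonic stage means, Bmp2 and Bmp4 had an r of 0.959, Bmp5 and Bmp7 of 0.973, and Bmp2 and Tgfb2 of 0.950. With both adult stages added, the r of Bmp4 was 0.718 with Bmp2, 0.445 with Bmp7 and 0.240 with Bmpr1a, and 0.732 with Tgfbr3 where it had been 0.746. Some values of Tgfbr3 and Tgfb3 with other members also went down, that of Tgfbr3 and Bmp7 from 0.892 to 0.502 and that of Tgfb3 and Bmp2 from 0.684 to -0.04. Others went up, such as that of Tgfb3 and Tgfb1 from -0.369 to 0.257 and that of Tgfb3 and Bmp10 from 0.094 to 0.403. The r of Bmp5 and Bmp7 was 0.918. These pairs share arrays and scaling, and they are given as a description.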

How the data were processed

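RNA from mouse hearts was hybridized to Affymetrix Mouse430 2.0 arrays, 3 for each of 12 stages. The deposited values are log2 intensities that the authors made by RMA (background subtraction, quantile normalization, probe summary), with Affymetrix Expression Console and Partek 6.6 named in the submitters' processing notes. Arrays were grouped by their labels, and no comparison columns of the authors were used. Genes were named by the symbols in the file, and coordinates come from RefSeq (GRCm38.p6) by gene ID. The number of arrays limits the precision, since 3 per stage give the spread.

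A means model over all 36 arrays was fitted with limma 3.58.1 in R 4.3.3 with eBayes, with Benjamini-Hochberg adjustment over all 45101 probe sets in each comparison and 95% confidence intervals without adjustment. Differences are the first-named stage minus the second, on the log2 scale. Sexes were compared over 9 pairs with stage as a block. A call is an adjusted p under 0.05. The members and the pathway and marker lists were chosen with earlier results of these data known. From the target list, 1 gene is not reported here and is left out of the counts. Beside the members, the text names list genes that passed the stricter rule or that define their list, and for each member the 3 probe sets most like it were listed. On simulated data with 45101 probe sets, the test recovered 79% of 2-fold changes between E10.5 and E19.5, 77% between E10.5 and young adults, 74% between E19.5 and young adults and 82% between old and young adults. In each simulation 100 probe sets had a 2-fold change, 100 a 4-fold change and the rest no stage difference. Far more were called in the data, so the adjustment works differently there and these shares need not hold for the comparisons above.

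Alternatives were quantile normalization again, median centring, an expression filter before the model, eBayes with trend and robust settings, the sex label, the title prefix or the hybridization control as a term, only the arrays of both stages, the other probe sets of a gene, and leaving out each array in turn.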

Additional observations from a re-analysis of the deposited data

How the results depend on the processing

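The counts of members called were 8, 8, 6 and 0 in the 4 stage comparisons (E10.5 against E19.5, E10.5 against young adult, E19.5 against young adult, old against young adult) and 9 over the embryonic stages, and they stayed within 1.5 times of these under each alternative run, except that old against young adult ranged from 0 to 1 when 1 array at a time was left out. The sex label as a replicate block gave 8, 8, 6, 0 and 9 and changed no other call. The male and female comparison gave 0 with and without the stage block. The labels did not pair the arrays: deviations of arrays with the same label correlated with r of 0.196, 0.008 and 0.096 between E19.5 and young adults (female, male, mixed). Of the values of single genes under alternatives, 520 kept direction and side of the threshold, 16 gained a call, 15 lost one and 37 changed sign.

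The changes of sign, whose cause was not tested, were as follows. Between E10.5 and young adults Bmp4 was -0.16 under quantile normalization and -0.19 under centring. Between old and young adults Tgfb3 was -0.097 and -0.056 under the same settings, and Bmp10 -0.083 under centring. Bmp5 between E19.5 and young adults was -0.037 under centring, -0.10 with the hybridization covariate, and -0.21 and -0.17 by its other probe sets. With the title prefix as a block, a term read from E16.5 alone, Tgfb3 was 0.30 between E10.5 and E19.5. With the hybridization covariate Bmp10 was 0.092, 0.20 and 0.11 in the 3 developmental comparisons, Tgfbr3 -0.10 between E10.5 and young adults, and between old and young adults Bmp4 was 0.027, Bmp7 -0.16, Tgfb3 -0.54 and Tgfbr3 -0.20. By other probe sets Bmpr1a was -0.32 and -0.45 between E10.5 and E19.5, -0.27 and -0.69 between E10.5 and young adults, -0.11 and -0.24 between E19.5 and young adults and 0.24 between old and young adults. Tgfbr3 by its other probe set was -0.58 and -0.74 at E10.5 against E19.5 and young adults and -0.34 in old against young adults, where Bmp7 was -0.039 and -0.36 and Tgfb2 -0.16 by theirs. Leaving out 1 array, old against young adult ranged from -0.47 to 0.34 for Bmp10, -0.15 to 0.087 for Bmp5, -0.31 to 0.30 for Bmpr1a and -0.30 to 0.49 for Tgfb3.

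The precision is that of 3 arrays per stage. Bmp10, Tgfb1 and the late Bmp5 values lie near the floor, where signal limits what can be seen.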
